A study of Danio rerio with 16 samples.

Results

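Normal development between 48 and 96 hours post-fertilization (hpf) was followed in zebrafish embryos of the wild-type TL strain that had been kept in ethanol, the vehicle of a valproic acid (VPA) exposure, from 4 hpf. Of the 16 arrays of the study, 8 belong here, 4 of vehicle embryos at 96 hpf and 4 of vehicle embryos at 48 hpf, chosen by their labels. The other 8 arrays hold VPA embryos of both ages (VPA is an anticonvulsant that inhibits histone deacetylases) and serve only for 1 comparison at the end. Every group carries the same strain background, both vehicle groups received ethanol, and an untreated group was not analysed here. Each array was hybridized with Cy3-labelled total RNA of whole embryos, and the number of embryos or clutches behind a sample is not given in the sources used here. The p-values therefore measure only the spread between these samples.

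MicroRNAs (miRNAs) are short RNAs that guide Argonaute proteins to partly complementary messenger RNAs and repress them. In zebrafish the miR-430 family is transcribed at the onset of zygotic transcription and clears maternal messenger RNAs, while most tissue miRNAs appear later, as organs differentiate. The interval from 48 to 96 hpf covers hatching, the outgrowth of liver, gut and pancreas, the maturation of hair cells and retina, and the start of free swimming.

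All 4 arrays of 96 hpf lie on slide 2 and all 4 of 48 hpf on slide 1, each slide with 1 scan, so age cannot be told apart from slide or scan in any comparison below. The 75th percentile of signal per array was 1978 to 2398 at 96 hpf and 881 to 1254 at 48 hpf, a ratio of 1.90 (exact two-sided permutation p = 0.0286, n = 4 against 4, the smallest p this design can give). Bright control spots in the corners of the arrays, which carry no embryo RNA, had median signals of 3360 to 6278 at 96 hpf and 2762 to 5019 at 48 hpf. Probes well above background made up 58.9% ± 2.17 at 96 hpf and 53.2% ± 1.49 at 48 hpf (SD, n = 4 each). Signals were divided by each array's 75th percentile, so that 0 on the log2 scale used below is that percentile and -3.93 is the floor to which lower signals were raised. A value over the floor need not be above background. A change is the difference of mean log2 values, 96 minus 48 hpf. Arrays of the same age correlated at 0.997 to 0.999 (Pearson's r over the tested miRNAs) and arrays of different ages at 0.895 to 0.907. All 16 marker miRNAs of muscle, brain, liver, blood, skin, sensory cells and the early embryo were detected on all 8 arrays.

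The array carries probes for 245 zebrafish miRNAs. Those above background on 3 or 4 arrays of an age, 175 in all, were tested, and 63 of the rest were detected on no array. With limma 152 of the 175 passed an adjusted p of 0.05, which is a background of 86.9%, with 88 higher (50.3%) and 64 lower (36.6%) at 96 hpf. A passed test is therefore the rule in these data, and size tells more: 37 miRNAs (21.1%) changed at least 2-fold, 22 higher (12.6%) and 15 lower (8.57%). All 37 kept their direction under 5 ways of scaling the arrays, and 101 of the 152 calls did, 82 higher and 19 lower. Away from the floor, leaving out the scaling raises each change by about 0.92, the log2 difference of the 75th percentiles. A 2-fold fall could then hardly turn, nor could a rise, so for the 37 that setting is no test. The balance of directions depends on the scaling: 105 were higher and 49 lower when arrays were scaled to their summed miRNA signal, and 142 and 7 without scaling. It depends on the filter too: of the 145 miRNAs detected on all 8 arrays, 65 were higher and 59 lower, with a median change of 0.03. The tested set holds 18 miRNAs detected at 96 hpf only and 3 at 48 hpf only. These passed the filter only through the age where they are high, and the shares above and the list and cluster counts below include them. The shares of 50.3% higher and 36.6% lower are the background for every list below. The median change of all tested miRNAs was 0.14 in the setting used here, 0.35 with the summed signal and 0.94 without scaling. The changes below are those of the first setting, with no median subtracted, unless another scaling is named. The values of 96 and 48 hpf arrays did not overlap for 148 miRNAs (84.6%).

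The sequences of 5 sets carry the main results, and are shown as the RNA stretch that each probe is complementary to, 5′ to 3′. The files hold no other part of the mature miRNA. The miR-430 probes are shown because the family fell most, with capitals for the longest run shared with miR-430a.
miR-430a: gcuauuuguugggguag
miR-430b: gcuaucaaGUUGGGGUAG
miR-430c: gcuucucuUUGGGGUAG
miR-430j: ugcuaucaaaUUGGGGUA
miR-430i: GCUAUUUGUUGGcguag
The shared letters lie at the 3′ end of all but miR-430i, whose stretch differs from that of miR-430a at 1 position of 17. The stretches of miR-430j and miR-430b also differ at 1 position of the 17 where they overlap. The let-7 stretches show how little separates members that rose by different amounts, with capitals for letters that differ from let-7a.
let-7a: agguaguagguuguauaguu
let-7c: gguaguagguuguauGguu
let-7d: gguaguUgguuguauGguu
let-7e: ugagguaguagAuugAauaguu
let-7g: ugagguaguagUuuguauaguu
let-7i: gagguaguagUuuguGCUguu
The stretches of let-7c and let-7g each differ from let-7a by 1 letter and let-7d by 2, so a probe may also bind a close relative. For 72 of the 175 tested miRNAs the probe is at most 1 letter from the known stretch of another zebrafish miRNA. Both miR-29 members are shown with capitals for the 3 letters that differ.
miR-29a: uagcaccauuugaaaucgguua
miR-29b: caccauuugaaaucAguGU
The miR-17 stretches explain a limit, since that of miR-20b is short and lies, over 12 letters, inside that of miR-17a with no difference, and the probes of this pair cannot separate them.
miR-17a: ugcuuacagugcaggua
miR-20a: gugcuuaUagugcagguag
miR-20b: acagugcagguag
Among risers past 2-fold whose probe is not within 1 letter of another miRNA, 4 are shown: miR-192, the gut and liver miRNA, miR-122, the liver miRNA, and the neuronal miR-132 and miR-212, which have neighbouring positions on chromosome 15.
miR-192: gaccuaugaauugacagcc
miR-122: agugugacaaugguguuug
miR-132: ucuacagccauggucg
miR-212: agucuacagucauggcu
In danRer6 (Zv8) coordinates, those of the array files, miR-192 lies at chr10:22538377-22538394 and miR-122 at chr21:8712776-8712793. The miR-132 probe has 4 positions, 1 of them on chromosome 10 beside miR-2184, so its signal is not that of the miR-212 locus alone. The stretches of miR-132 and miR-212 have a run of letters in common, and whether their probes share signal was not tested. One of 20 positions of the miR-430a probe is chr4:34354423-34354439 on the minus strand. Some spans in the files are 1 base shorter than the probe.

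The miR-430 family showed the largest falls, and its 4 tested members were lower under all 5 scalings. Scaled signal (log2) of miR-430b was -0.18, -0.35, -0.31 and -0.20 on the 96 hpf arrays and 3.37, 3.34, 3.32 and 3.33 on the 48 hpf arrays. For miR-430a it was -0.20, -0.40, -0.47 and -0.25 at 96 hpf and 3.01, 3.07, 3.03 and 3.18 at 48 hpf. The ages lie far apart in both, and each was still well above background on all 4 arrays at 96 hpf. miR-430b fell 12.1-fold (log2 change -3.60 ± 0.05, SE, n = 4 arrays per age, limma adjusted p = 2.43e-13) and miR-430a 10.6-fold (-3.40 ± 0.07, adjusted p = 4.07e-12). miR-430j was dimmer, with -2.75, -2.85, -2.82 and -2.77 at 96 hpf and 0.89, 0.84, 0.94 and 0.91 at 48 hpf, and fell 13.0-fold (-3.70 ± 0.04, adjusted p = 1.21e-13). Its probe is 1 letter from the stretch of the brighter miR-430b and may share that signal, so its fall may not be a separate one. miR-430c fell 8.34-fold, the least of the 4. Their summed signal made up 0.555% of the signal of all zebrafish miRNAs at 96 hpf and 5.20% at 48 hpf, a share that mixes probes of unequal binding. miR-430i, 1 letter from miR-430a, lay on the floor on all 8 arrays.

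The miR-17/miR-92 clusters, which in mammals promote proliferation, fell as a group. All 17 tested members were lower at 96 hpf, and 16 with quantile normalization, but 1 was lower and 1 higher without scaling. The background of lower calls is 36.6%, and the median change was -0.89 against 0.14 for all tested miRNAs. miR-92a had 1.46, 1.25, 1.19 and 1.32 at 96 hpf and 2.52, 2.48, 2.63 and 2.62 at 48 hpf, a 2.39-fold fall (-1.26 ± 0.06, adjusted p = 1.11e-08). miR-363 fell 2.30-fold, miR-18c 2.26-fold, miR-18a 2.07-fold and miR-19d 2.04-fold, while miR-20b, at -1.13, may share the signal of miR-17a, at -0.81. The members with the smallest change were miR-93 (-0.49) and miR-92b. miR-92b lay on the floor on all 4 arrays at 96 hpf and between -3.72 and -3.30 at 48 hpf. The star strands miR-17a* and miR-20a*, the less abundant arms of their hairpins, were detected on 0 arrays at 96 hpf and on 4 at 48 hpf, and were at least 1.69-fold and 1.47-fold lower. Like miR-92b, they were tested only through 48 hpf, and the 17 members include all of these. The group's share of summed signal was 14.3% at 96 hpf and 21.9% at 48 hpf. Of the 17 members, 6 were past 2-fold.

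In the same direction, all 7 tested members of the miR-15/16 family, which in mammals restrain the cell cycle, were lower (median change -0.43), whereas without scaling 4 were higher and 0 lower. miR-15b had -0.06, -0.14, -0.13 and -0.12 at 96 hpf and 0.84, 0.94, 0.86 and 0.84 at 48 hpf, a 1.97-fold fall. Of the 7 tested members of the Hox cluster list, miRNAs encoded among the Hox genes, 6 were lower and 1 did not pass, whereas without scaling 6 were higher and 0 lower. Their median change was -0.33, with the largest fall in miR-10c (-0.53).

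**Figure D1:**
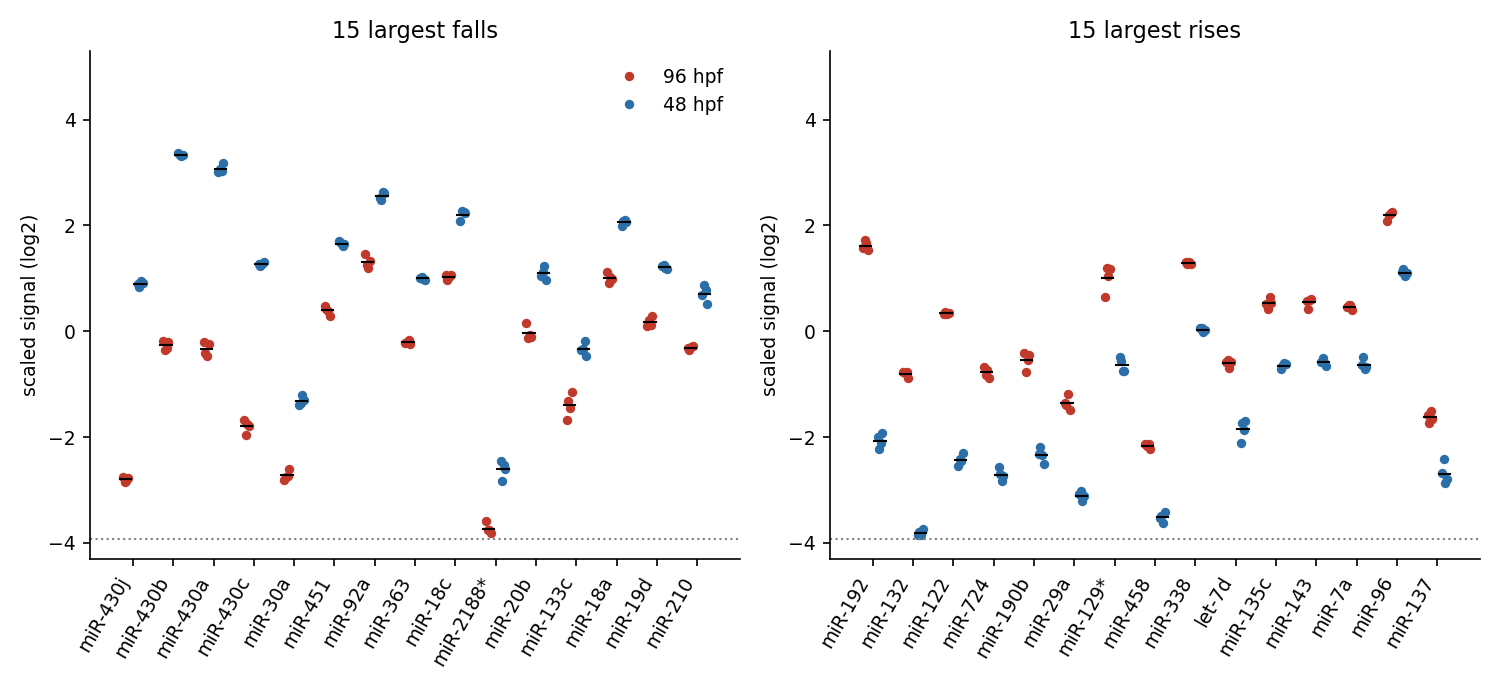
Scaled signal (log2, y axis) of the 15 miRNAs with the largest fall (left) and the largest rise (right) among those detected at both ages; red points are the 4 arrays of 96 hpf, blue points the 4 of 48 hpf, black lines the means, and the dotted line the floor at -3.93. The 2 ages do not overlap for any miRNA shown, as for 84.6% of all tested miRNAs, and the 3 largest falls are miR-430j, miR-430b and miR-430a.

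The let-7 family, which in worms and vertebrates marks the passage from early to late developmental programmes, was mostly higher at 96 hpf. Of 8 tested members 7 were higher, where the background of higher calls is 50.3%, and let-7b did not pass (0.12, adjusted p = 0.367), with a median change of 0.70. Under quantile normalization 7 were higher and 1 lower, and with the other scalings 7 or 8 were higher and 0 lower. let-7d had -0.58, -0.54, -0.69 and -0.58 at 96 hpf and -2.11, -1.73, -1.86 and -1.70 at 48 hpf. It rose 2.38-fold (1.25 ± 0.08, adjusted p = 1.31e-07), and let-7g 2.03-fold (1.02 ± 0.11, adjusted p = 7.77e-06). let-7e and let-7i were detected at 96 hpf on 4 arrays and at 48 hpf on 0. They were tested only through the age where they are high, and the count of 7 and the median include them. let-7h and let-7j were detected on no array. The family's share of summed signal was 1.57% at 96 hpf and 0.801% at 48 hpf.

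Liver and gut miRNAs held the largest rise. miR-192 had 1.57, 1.72, 1.66 and 1.53 at 96 hpf, and at 48 hpf its 4 arrays lay between -2.22 and -1.93. It rose 12.8-fold (3.68 ± 0.07, adjusted p = 3.86e-12). Its neighbour on chromosome 10, miR-194a, had -1.27, -1.52, -1.31 and -1.40 at 96 hpf and lay on the floor on all 4 arrays at 48 hpf, so that it was at least 4.68-fold higher. miR-122, the main miRNA of hepatocytes, had 0.33, 0.37, 0.32 and 0.35 at 96 hpf and -2.55, -2.40, -2.45 and -2.30 at 48 hpf, a 6.81-fold rise (2.77 ± 0.05, adjusted p = 4.07e-12). The list's pancreatic members went the other way: miR-216a, miR-216b and miR-217, which in vertebrates are enriched in the exocrine pancreas, were 1.36-fold, 1.40-fold and 1.32-fold lower, and miR-375 of the endocrine pancreas was detected on no array. Another probe of miR-217 gave a change near 0 of the opposite sign. In all, 4 of the 7 tested members of this list were higher and 3 lower, and all 7 were higher without scaling. The 4 include miR-194a and miR-194b, each detected on 0 arrays of 48 hpf and so tested only through 96 hpf, and miR-194b allows no fold. In whole embryos, fewer cells of a type and less RNA per cell cannot be told apart, here and below.

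Neuronal miRNAs moved in both directions, with 11 of 19 tested members higher, 4 lower and 4 not passed (median change 0.22). Of all tested miRNAs 50.3% were called higher and 36.6% lower. The 11 include miR-135a, miR-212 and miR-7b, detected on 0 arrays of 48 hpf and so tested only through 96 hpf. Without scaling 17 were higher and 0 lower. miR-132, which in mammalian neurons is induced by activity, had -0.77, -0.78, -0.77 and -0.89 at 96 hpf and -3.84, -3.79, -3.85 and -3.74 at 48 hpf, where it was well above background on 2 of 4 arrays. The fitted rise was 8.02-fold (limma adjusted p = 7.08e-13), a size that rests on 48 hpf values close to the floor. miR-212, its neighbour on chromosome 15, had -2.30, -2.30, -2.23 and -2.25 at 96 hpf and lay on the floor on all 4 arrays at 48 hpf, at least 2.51-fold higher. miR-129* rose 3.15-fold, miR-135c 2.27-fold, miR-7a 2.13-fold and miR-137, a regulator of neuronal differentiation, 2.10-fold. Those that were lower include miR-9, which is expressed in neural progenitors of the zebrafish brain, with 4.05, 4.00, 3.99 and 3.99 at 96 hpf and 4.79, 4.98, 4.87 and 4.87 at 48 hpf, a 1.83-fold fall (log2 change -0.87, but -0.13 with quantile normalization and 0.05 without scaling). miR-124, a pan-neuronal miRNA, had 3.38 ± 0.05 at 96 hpf and 3.39 ± 0.06 at 48 hpf (SD, n = 4 each) and a change of -0.02 (adjusted p = 0.732).

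Sensory miRNAs were mostly higher. Of the 7 tested members 6 were higher and miR-184, found in lens and cornea, was lower (-0.31), whereas all 7 were higher without scaling. With quantile normalization 5 were higher and 2 lower. The 6 include miR-182*, whose small change (0.16) turned to -0.28 there. The median change was 0.66. The polycistron of miR-183, miR-96 and miR-182, expressed in hair cells and photoreceptors, rose in all 3 products. miR-96 had 2.08, 2.20, 2.23 and 2.26 at 96 hpf and 1.11, 1.17, 1.05 and 1.09 at 48 hpf, a 2.12-fold rise (1.08 ± 0.05, adjusted p = 6.52e-09). miR-182 rose 1.79-fold and miR-183 1.57-fold. miR-726 had -2.23, -2.31, -2.24 and -2.36 at 96 hpf and lay on the floor at 48 hpf, at least 2.49-fold higher. It was tested only through 96 hpf, and the 6 higher members include it. miR-204 of the eye rose 1.24-fold.

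All 6 tested members of the cartilage and mesenchyme list were higher (5 with quantile normalization), with a median change of 0.55. Of these, miR-455 was detected on 4 arrays of 96 hpf and on 0 of 48 hpf, so it was tested only through the age where it is high. miR-140, a cartilage miRNA, had 1.58, 1.50, 1.51 and 1.55 at 96 hpf and 0.48, 0.56, 0.53 and 0.72 at 48 hpf, a 1.95-fold rise (0.96 ± 0.06, adjusted p = 3.32e-08), and its other arm miR-140* rose 1.84-fold. The mesenchymal miR-199 and miR-214, transcribed together, were higher by 0.28 and 0.46. Both tested miR-29 members, which in mammals repress collagens, were higher. miR-29a had -1.35, -1.40, -1.19 and -1.48 at 96 hpf and -3.08, -3.02, -3.20 and -3.12 at 48 hpf, a 3.37-fold rise (1.75 ± 0.07, adjusted p = 1.11e-09). miR-29b was detected at 96 hpf on 4 arrays and at 48 hpf on 0, at least 3.03-fold higher, and was likewise tested only through 96 hpf. All 6 tested members of the miR-23/24/27 clusters were higher too (4 with quantile normalization), by 0.34 to 0.66 with a median of 0.53. The 0.34 is that of miR-27d, detected on 3 arrays of 96 hpf and on 0 of 48 hpf. It was tested only through the age where it is high, and its size is not a measured one.

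Blood, vessel and muscle lists each moved both ways, with 2 of 5 tested blood members higher and 2 lower, and 3 of 6 vessel members higher and 2 lower. Without scaling these were 3 higher and 1 lower in blood and 6 higher and 0 lower in vessels. The higher members include miR-146a in blood and miR-145 in vessels, each detected on 0 arrays of 48 hpf and so tested only through 96 hpf. miR-451, which zebrafish erythrocytes need to mature, had 0.47, 0.42, 0.39 and 0.29 at 96 hpf and 1.70, 1.66, 1.61 and 1.66 at 48 hpf, a 2.40-fold fall (-1.26 ± 0.05, adjusted p = 1.11e-09). Its partner in the same transcript, miR-144, fell 1.58-fold. The leukocyte miR-142a-3p rose 1.62-fold, and miR-146a, an immune miRNA, was at least 1.70-fold higher. miR-150 and miR-155, of lymphocytes and activated leukocytes, were detected on no array. miR-143, a smooth muscle miRNA, had 0.57, 0.42, 0.58 and 0.62 at 96 hpf and -0.58, -0.50, -0.57 and -0.65 at 48 hpf, a 2.18-fold rise. miR-145, its neighbour, was at least 1.72-fold higher, while the endothelial miR-126 rose 1.11-fold. In muscle 2 of 7 tested members were higher, 4 lower and 1 did not pass, whereas without scaling 6 were higher and 0 lower. miR-1 changed by 0.49 and miR-499 by 0.39, against -0.18 for miR-206 and -1.06 for miR-133c. In these the ages did not overlap, as for 84.6% of all tested miRNAs. The change of miR-206 turned positive with quantile normalization, with the summed signal and without scaling (0.74).

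Among the other miRNAs past 2-fold, miR-724 had -0.68, -0.82, -0.74 and -0.88 at 96 hpf and -2.56, -2.70, -2.83 and -2.74 at 48 hpf, a 3.81-fold rise (1.93 ± 0.07, adjusted p = 4.95e-10). miR-190b rose 3.49-fold, miR-458 2.54-fold and miR-338, a glial miRNA in mammals, 2.39-fold. At 48 hpf miR-458 had a mean of -3.51, close to the floor, and was well above background on 3 of 4 arrays. miR-30a, which zebrafish bile ducts need, stood apart from its family. It had -2.82, -2.76, -2.73 and -2.60 at 96 hpf and -1.39, -1.35, -1.21 and -1.30 at 48 hpf, a 2.66-fold fall (-1.41 ± 0.06, adjusted p = 2.74e-09), whereas 4 of the 6 tested miR-30 members were higher and 1 did not pass. miR-210, induced by low oxygen in mammalian cells, fell 2.03-fold, with values of -0.35 to -0.27 at 96 hpf and 0.51 to 0.87 at 48 hpf.

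**Figure D2:**
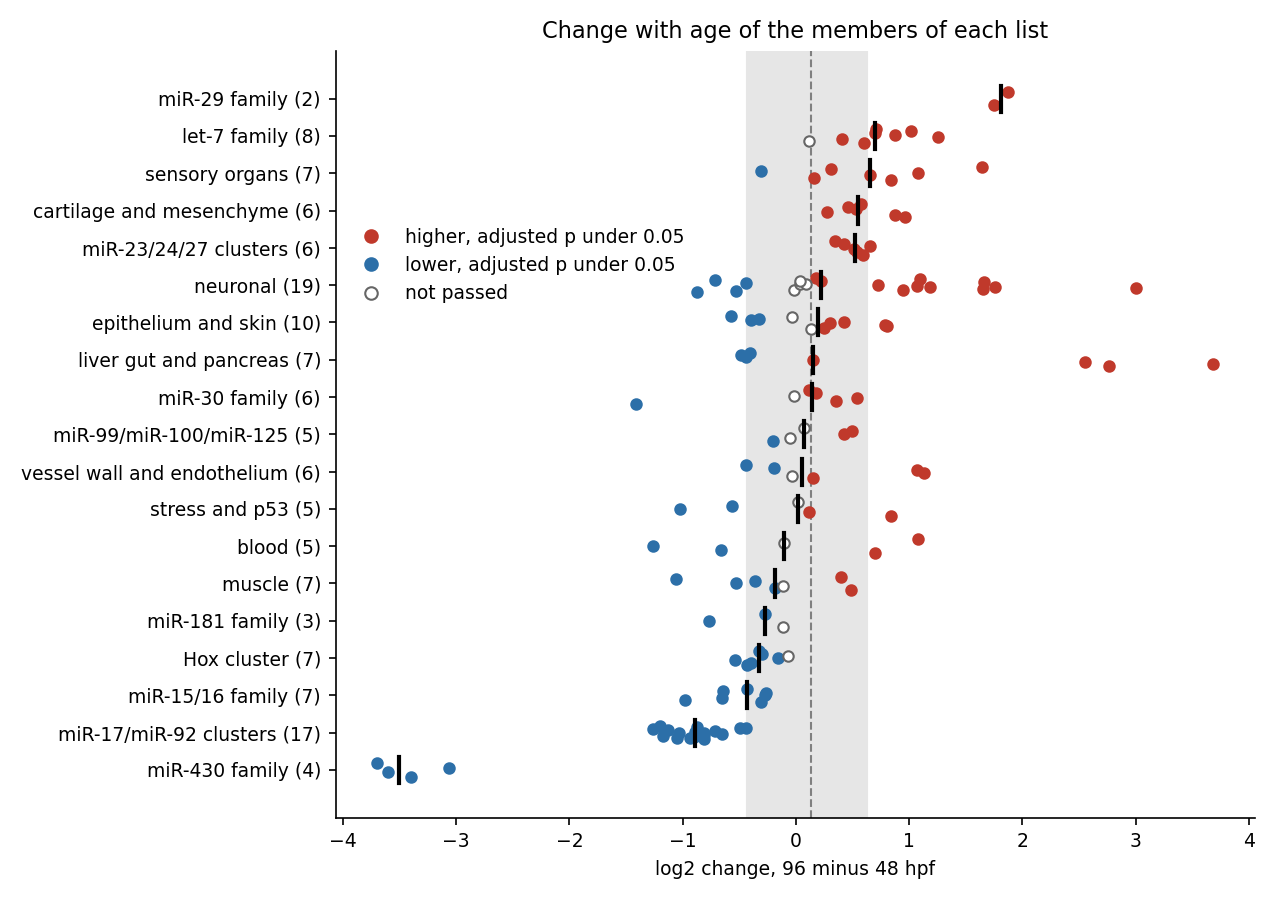
Change with age (log2, 96 minus 48 hpf, x axis) of each tested member of 19 lists, ordered by list median (black bar), with the number tested in brackets; red is higher and blue lower at an adjusted p under 0.05, and open points did not pass. The dashed line is the median of all 175 tested miRNAs (0.14) and the grey band their middle 50%; the miR-430 and miR-17/miR-92 medians lie to the left of the band and those of miR-29, let-7 and sensory organs to the right; without scaling between arrays the Hox cluster, miR-15/16, miR-181, muscle and blood medians turn positive, those of muscle and blood also with the summed signal and that of muscle with quantile normalization.

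Detection itself changed for 21 miRNAs. Detected on 3 or 4 arrays of 96 hpf and on 0 of 48 hpf were 18, and 3 were the other way round. Leaving out 1 array, with detection on 3 arrays still required, these counts ran from 12 to 19 and from 2 to 3. Of the 18, 6 were at least 2-fold higher: miR-194a, miR-29b, miR-135a (at least 2.94-fold), miR-212, miR-726 and miR-2184 (at least 2.03-fold). Of the other 12, 8 had bounds from 1.01 to 1.72 and 4 allow no fold. All lay low, the brightest being miR-194a at -1.37 ± 0.11 (SD, n = 4) at 96 hpf. The 96 hpf arrays were brighter as a whole, so more of a low signal could pass the background there, and its part in the count of 18 was not tested. The 3 detected at 48 hpf and not at 96 hpf, miR-17a*, miR-20a* and miR-92b, all belong to the miR-17/miR-92 list.

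**Figure D3:**
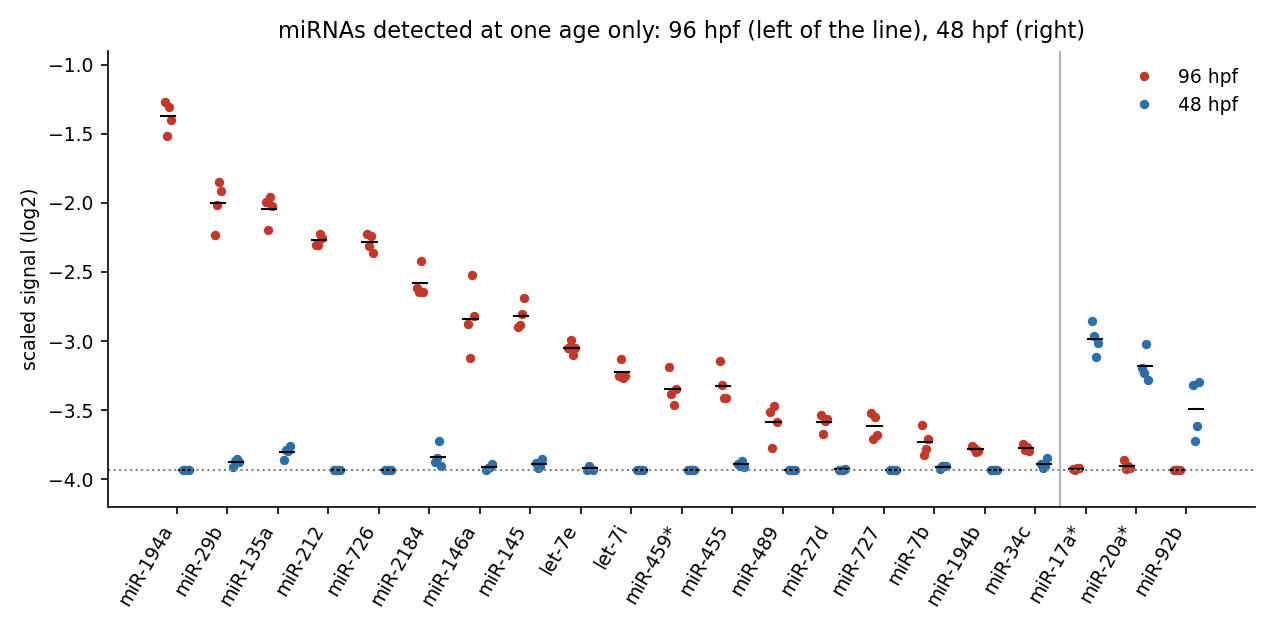
Scaled signal (log2, y axis) of the 18 miRNAs detected at 96 hpf but not at 48 hpf, left of the grey line, and the 3 detected at 48 hpf but not at 96 hpf; red points are the 4 arrays of 96 hpf, blue points the 4 of 48 hpf, black lines the means and the dotted line the floor at -3.93. miR-194a lies highest, and several of the 18 lie within a small distance of the floor.

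The most abundant miRNAs were ordered by the mean scaled signal of their brightest probe, which depends on how well a probe binds, so only moves of the same miRNA between ages are described. miR-9 was first and miR-19b second at both ages. Of the brightest 20, 16 were shared by both ages. Those 20 made up 51.6% of the summed signal at 96 hpf and 56.5% at 48 hpf. miR-430b stood at rank 91 at 96 hpf and 11 at 48 hpf, and miR-430a at 95 and 12, whereas miR-17a stood at 16 and 7. Upward moves of 5 or more places were those of miR-125b, a miRNA of the developing nervous system, to rank 6 at 96 hpf against 15 at 48 hpf, of miR-1 to rank 10 against 21, of miR-199 to 11 against 18, of miR-204 to 12 against 19, of miR-26b to 13 against 24, of miR-199* to 18 against 29 and of miR-22a to 20 against 25, although the signal of miR-22a did not pass (change 0.11, adjusted p = 0.0792). miR-1 lay between 3.06 and 3.15 on the 96 hpf arrays and at 2.40, 2.93, 2.49 and 2.62 on those of 48 hpf. The leading places of miR-205 of the skin (rank 4 at both ages) and miR-206 of skeletal muscle (rank 3 at 96 hpf and 5 at 48 hpf) moved little.

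**Figure D4:**
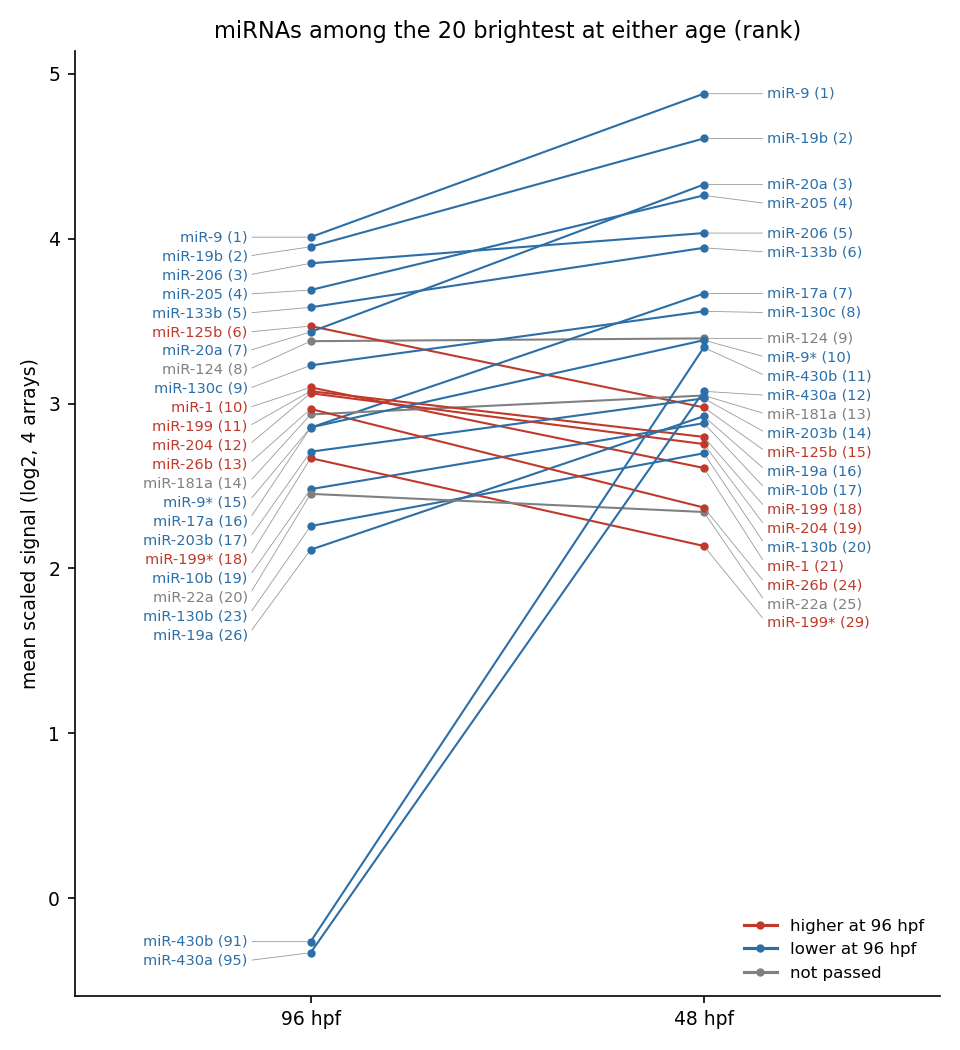
Mean scaled signal (log2, y axis, 4 arrays) at 96 hpf (left) and 48 hpf (right) of every miRNA among the 20 brightest at either age, with its rank of brightness in brackets; red lines are higher and blue lines lower at 96 hpf by limma, and grey lines did not pass. miR-430a and miR-430b leave the top at 96 hpf, and miR-9 and miR-19b hold ranks 1 and 2; without scaling between arrays miR-9, miR-19b and most other blue lines turn upward.

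Tested miRNAs whose probes lie within 10000 bases of each other on danRer6 form 46 distinct clusters, and in 31 of them all members passed in the same direction, 17 higher and 14 lower, where 50.3% of all tested miRNAs were called higher and 36.6% lower. Those are shares of single miRNAs, not a rate for clusters. The clusters are not independent: 22 share a miRNA with another, and 8 hold only the arms of 1 hairpin. Of the 18 with several hairpins and no miRNA in common with another cluster, 13 passed in 1 direction. Both counts include clusters with members tested only through the age where they are high. Examples are miR-194a beside miR-192 and miR-29b beside miR-29a, and among the 31 also miR-17a* and miR-20a*. The counts were not made without such members, nor under another scaling. In the cluster at chr8:45337794-45338621 all 8 members, from miR-17a to miR-92a, were lower (-1.26 to -0.66), and negative with each scaling but not without one, where 4 of the 8 turned. In that at chr4:14884996-14886141 all 4 members, miR-182* included, were higher (0.16 to 1.08), though miR-182* turned with quantile normalization (-0.28). It also lost its call without 48 hpf replicate 2 (0.09) and without 96 hpf replicate 1, 3 or 4 (0.14 to 0.17). The pancreatic cluster of miR-217, miR-216a and miR-216b at chr22:31474865-31475408 had a spread between members of 0.08, and its members turned positive without scaling (0.44 to 0.52). In 4 clusters members passed in opposite directions, but without scaling the lower members of all 4 turned positive, such as miR-130c (0.60) and miR-130b (0.48). One holds miR-1, higher by 0.49, beside miR-133a* at -0.53 (0.39 without scaling), with miR-133a at -0.12 (adjusted p = 0.274). Copies of a miRNA at other loci share its probe, so a cluster's value is not that of 1 locus alone.

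The 2 arms of 1 hairpin can differ in how they change. For 14 pairs both arms were tested, and the largest difference was in miR-2188, with -0.09 for the main arm (adjusted p = 0.16) and -1.13 for miR-2188* (adjusted p = 2.15e-07). At 96 hpf miR-2188* lay between -3.82 and -3.59 and was well above background on 3 of 4 arrays, so this size rests on values close to the floor. In miR-182 the changes were 0.84 and 0.16 for the star arm, and in miR-181a -0.11 and -0.77. None of the 14 differences passed after adjustment over the pairs (exact two-sided permutation test over 4 against 4 arrays, lowest adjusted p = 0.0667), and the smallest raw p this design allows is 0.0286, reached by 6 pairs. With that limit a difference in only a few pairs could not pass, so this outcome does not show that the arms changed alike.

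The same interval could be read in VPA embryos, whose arrays lie on the same slides, so that their agreement does not separate age from slide. The 75th percentile of signal ran from 1253 to 6065 on the VPA arrays of 96 hpf. On those of 48 hpf it was 751, 535, 515 and 2334, against 881 to 1254 on the vehicle arrays of 48 hpf. How far this brightness affects detection and the contrast below was not tested. Of the 152 miRNAs called in vehicle embryos, 146 had the same sign in VPA embryos and 131 also passed there, as did all 37 past 2-fold. The change with age differed between VPA and vehicle embryos for 24 of 178 miRNAs (13.5%, limma interaction contrast over 16 arrays), and for 46 without VPA 96 hpf replicate 4. Of the 24, 14 were detected on at least 1 array of each of the 4 groups. Among them miR-182 changed by 1.72 in VPA and 0.84 in vehicle embryos (difference 0.88 ± 0.10, SE, adjusted p = 1.93e-05), miR-29a by 1.23 and 1.75, miR-451 by -0.79 and -1.26, and miR-210 by -0.30 and -1.02. miR-21, detected on all 4 arrays of each group, changed by -0.63 in VPA and 0.02 in vehicle embryos (difference -0.65 ± 0.11, SE, adjusted p = 0.000887). In VPA embryos of 48 hpf miR-29a was detected on only 1 array (mean -3.14 over the arrays of that group), so its change of 1.23 rests on signals mostly not above background. For the other 10 a group had no detected array, so the contrast rests on values at or near the floor and its size is not a measured one. miR-212 and miR-194a, detected on no array of 48 hpf with either exposure, had means of -3.30 and -2.19 in VPA and -2.27 and -1.37 in vehicle embryos at 96 hpf. miR-29b had -3.07 in VPA and -2.003 in vehicle embryos at 96 hpf, and at 48 hpf was detected on 1 VPA array and on 0 vehicle arrays. miR-132 had -1.60 in VPA and -0.80 in vehicle embryos at 96 hpf, and at 48 hpf was detected on 0 VPA arrays and on 2 vehicle arrays. All 4 of these were lower in VPA embryos at 96 hpf by their means, a difference not tested by itself. Other large changes did not pass the contrast: miR-192 changed by 3.51 in VPA and 3.68 in vehicle embryos (difference -0.17 ± 0.15, SE), miR-122 by 2.95 and 2.77 (0.19 ± 0.11) and miR-430b by -3.60 in both (0.00 ± 0.14).

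**Figure D5:**
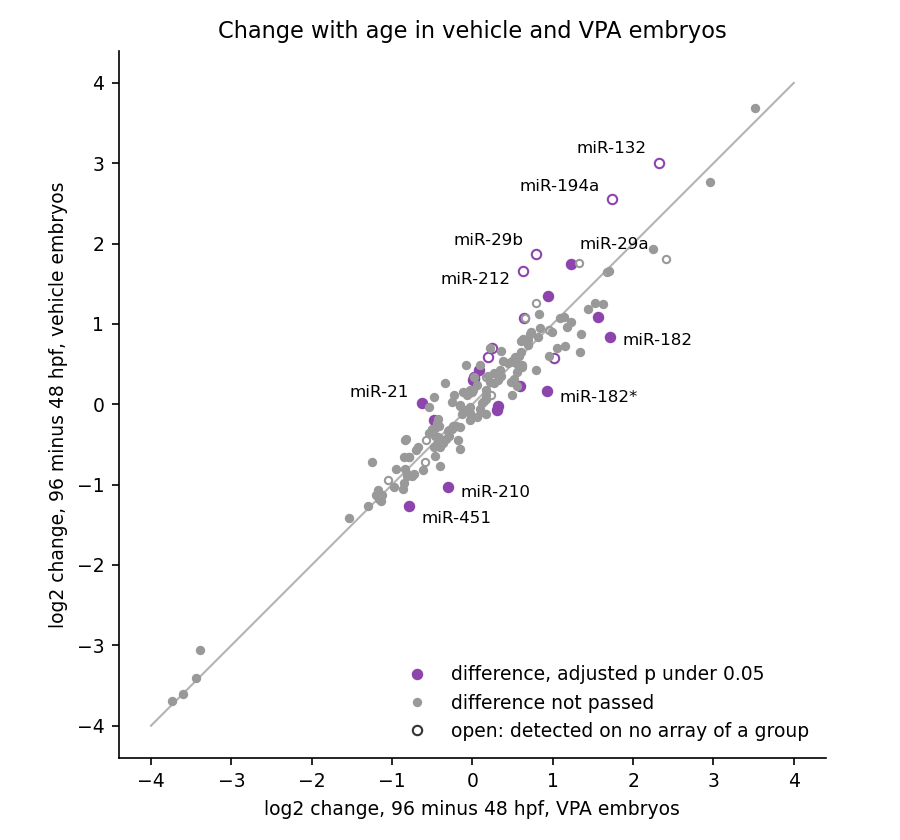
Change with age (log2, 96 minus 48 hpf) in VPA embryos (x axis) and in vehicle embryos (y axis) of the miRNAs tested in vehicle embryos; the line marks equal changes, purple points are those whose change differed at an adjusted p under 0.05, and grey points did not pass. Open points had a group with no detected array, so their position rests on values at or near the floor. Of the filled purple points, miR-29a (1.23 in VPA and 1.75 in vehicle embryos), detected on only 1 VPA array of 48 hpf, lies above the line and miR-182 (1.72 and 0.84) below it.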

How the data were processed

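The deposited files give the intensity of each spot of 1-colour (Cy3) Agilent miRNA arrays, which the authors subtracted for background and detrended within the array but did not normalize between arrays, per the file headers (Feature Extraction 9.5.3.1; 9.5 per the submitters' processing notes). The deposited value table holds the same intensity unscaled, with 100% of values within 1% of the scanner files. Columns of another kind, flags of 0 or 1 for outlier spots and spots well above background, were deposited beside it, per the file headers. Positions in the files are those of danRer6 (Zv8). Zebrafish miRNAs have 518 probes, with 10 to 20 spots per probe and array. Control and outlier spots were left out.

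From these, intensity was divided by each array's 75th percentile, raised to a floor of 0.0657 where lower (the lowest scaled signal flagged as well above background, as a median of the 8 arrays), put on the log2 scale and averaged over spots, and the brightest probe stood for a miRNA. It was detected where over 0.5 of its spots were well above background. A fold is a bound where an age had 0 detected arrays, set against the lowest signal so flagged on each array. limma 3.58.1 (lmFit, eBayes, R 4.3.3) gave two-sided tests, Benjamini-Hochberg adjusted over 175 miRNAs. Of 135 other detected probes of the called miRNAs, 132 had the same sign. The fit was tested on simulated data. Figures were drawn with matplotlib 3.10.9.

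The members, lists and rules were chosen with earlier results of these data known. The rule for named miRNAs took the 15 largest rises and falls, those detected at 1 age, the 20 brightest, up to 4 members of each list with its largest opposite change, the 8 steadiest of the 40 brightest, 6 pairs of arms, members of clusters of 3 or more and 8 that differ with VPA. let-7b and the undetected miRNAs named were added after their values were seen. The checks on named miRNAs below cover 81 tested miRNAs picked for the text, fewer than this rule gives. They leave out, for example, miR-21, miR-22a, miR-27d, miR-194b and miR-455. Families follow names, since grouping by seed was not made here. Alternatives were other scalings, filters and floors, normexp, the mean of all probes, a trended robust fit, a replicate block and leaving out each array.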

Additional observations from a re-analysis of the deposited data

Results flagged for a closer look

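Single arrays stood apart from the other 3 of their age, by Dixon's test at the 95% level, in 7 of 162 groups examined (the 81 named miRNAs at each age), where that level gives 1 in 20 by chance. At 96 hpf these were let-7i on replicate 2 (-3.13, the others -3.27 to -3.25), miR-132 on replicate 4 (-0.89, the others -0.78 to -0.77) and miR-2184 on replicate 3 (-2.42, the others -2.64 to -2.61), on the log2 scale. At 48 hpf they were miR-10c on replicate 4 (0.34, the others 0.50 to 0.53), miR-144 on replicate 1 (-1.97, the others -1.71 to -1.69), miR-182* on replicate 2 (-2.52, the others -2.27 to -2.24) and miR-199 on replicate 1 (2.90, the others 2.76 to 2.78). Both ages and all 4 replicate numbers occur among them. Groups with all 4 arrays on the floor, such as miR-194a at 48 hpf, have no spread and could not be flagged, so fewer than 162 groups were open to the test.

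The change with age differed between VPA and vehicle embryos, by the limma interaction contrast, for 14 of the 81 named miRNAs, a set that leaves out miR-21. The fitted difference (VPA minus vehicle, log2) was negative for miR-29b (-1.08), miR-212 (-1.03), miR-194a (-0.81), miR-132 (-0.68), let-7i (-0.46) and miR-145 (-0.44), which were detected on no array of at least 1 group at 48 hpf, so that these 6 values rest on values at or near the floor and are not measured sizes. It was also negative for miR-29a (-0.52) and miR-458 (-0.40), which had 1 or more detected arrays in each group, though only 1 in VPA embryos of 48 hpf. It was positive for miR-182 (0.88), miR-182* (0.77, also with 1 detected array in VPA embryos of 48 hpf), miR-210 (0.72), miR-96 (0.48), miR-451 (0.47) and miR-124 (0.33).

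Probes designed on pufferfish miRNAs were not part of the comparison, and 3 of 14 gave signal above background. fru-miR-184 had a mean log2 signal of -0.72 at 96 hpf and -0.54 at 48 hpf, detected on all 4 arrays of each age. fru-miR-7 had -2.42 at 96 hpf and -3.70 at 48 hpf, and fru-miR-458 had -3.50 at 96 hpf and lay on the floor at 48 hpf. Their signs are those of the zebrafish miR-184, miR-7a and miR-458.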

How the results depend on the processing

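The count of called miRNAs ran from 138 with normexp to 154 over the alternatives that keep 175 miRNAs. With unscaled signals 142 were higher and 7 lower, and 87 had a fitted change of at least 1 on the log2 scale, against 25 with the mean of all probes. The share of calls that were higher was 57.9% here, 68.2% with the summed signal and 95.3% unscaled. Of the 81 named miRNAs, a set picked for the text and smaller than the rule gives, 3 changed their call in a fit that left out 1 array. These were miR-181a, miR-182* and miR-2188, and 0 that passed in either fit turned. let-7b (-0.0188 to 0.19) and miR-124 (-0.0349 to 0.0065) changed sign in such fits without passing. Without scaling the changes turned to 0.39 in miR-10c, 0.91 in miR-124, 0.81 in miR-133a, 0.39 in miR-133a*, 0.27 in miR-144, 0.11 in miR-17a, 0.81 in miR-181a, 0.61 in miR-184, 0.27 in miR-19b, 0.35 in miR-205, 0.74 in miR-206, 0.0302 in miR-20a, 0.49 in miR-216a, 0.44 in miR-216b, 0.52 in miR-217, 0.83 in miR-2188, 0.0539 in miR-9 and 0.43 in miR-93, since it leaves the brighter 96 hpf arrays as they are. With quantile normalization let-7b (-0.42), miR-124 (0.33), miR-181a (0.18), miR-182* (-0.28) and miR-206 (0.34) turned, and with the summed signal miR-124 (0.22), miR-206 (0.0555) and miR-2188 (0.15) did. With the summed signal 2 more named miRNAs changed sign without passing in either setting. The cause was not tested. Leaving out 1 array, the 96 over 48 hpf ratio of 75th percentiles ran from 1.75 to 1.97, where no p under 0.05 is possible (smallest 0.0571), and the number of miRNAs whose change differed with VPA from 20 to 46. With the replicate number as a block 153 miRNAs were called. Arrays of the same number at the 2 ages did not deviate together (r = 0.06, 0.11, -0.13 and 0.08). These r values cannot tell whether samples of the same number share a clutch, which the sources used here do not give. Signal over background limits the miRNAs near the floor, and 4 arrays an age limit every value.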
